A study of Mus musculus with 12 samples.

Results

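The genes described here are the chemokines of the CC and CXC families and their receptors. They were taken as every gene probe whose deposited name, or current symbol reached through its accession, starts with Ccl, Cxcl, Ccr or Cxcr followed by a digit. The rule found 66 of 41174 gene probes, for 52 of 27670 genes, of which 35 encode ligands and 17 encode receptors. Of the 52 genes, 49 were well above background on at least 1 of the 12 arrays. Ccl22, Cxcl13 and Cxcr5 were above it on none. A further 15 genes were above it on 1 to 3 arrays, 20 on 4 to 11 and 14 on all 12. The probes of Pf4 and Ppbp carry the deposited names Cxcl4 and Cxcl7, and both genes are counted among the ligands.

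Chemokines are small secreted proteins that bind to heparan sulfate on cell surfaces and draw leukocytes along the resulting gradient through G protein-coupled receptors. Fibroblasts make several of them on stimulation by interleukin 1, tumour necrosis factor or interferons, largely through the transcription factor NF-kB and the interferon-activated factors. One pair, Cxcl12 and its receptor Cxcr4, is known for constitutive roles in stem cell niches and in the migration of progenitors rather than in inflammation.

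The 12 samples were single hybridisations to one-colour 60-base Agilent arrays. They comprised mouse embryonic fibroblasts (MEF), embryonic stem (ES) cells of 129/Ola mice, neural stem cell-like spheres formed by MEF transduced with Bmi1 (a polycomb gene), and 9 induced pluripotent stem (iPS) lines. The lines came from embryonic fibroblasts given Bmi1 and Oct4 (2 lines), or turned into neural stem cell-like cells with Sonic hedgehog (1 line), oxysterols (2 lines) or purmorphamine (2 lines), which activate hedgehog signalling, and then transduced with Oct4. The last 2 lines came from adult tail-tip fibroblasts given oxysterol and Oct4. MEF, ES cells and spheres are thus 1 sample each, without a replicate of their own, and the labels give neither doses, times nor culture conditions. Nothing in the labels says whether 2 lines of a group came from separate cultures, so p-values measure the spread between these samples only. In bulk RNA, fewer cells of a type and less RNA per cell cannot be told apart.

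Values are log2 processed signal minus the array's own 75th percentile, so 0 is the level of a bright gene, and each probe is compared only with itself across samples. "Dim" below means not well above background. Where a gene was dim throughout a group, its difference is given as "at least" a fold, measured to each array's lowest signal among probes well above background, which ran from -7.27 to -4.2 log2 units. ES markers checked the labels: 12 of 12 were above background in ES cells with a median of 3.53, their median in the lines ran from 3.28 to 4.08, and it was -6.2 in MEF and -5.92 in the spheres. The neural stem markers of the spheres had a median of -2.88, close to the -3.41 of ES cells and below the -0.47 of MEF. Above background were 40 chemokine and receptor genes in MEF, 42 in the spheres, 23 in ES cells and 19 to 34 in the lines, while the share of all genes above background was 74%, 81.3%, 67.4% and 62 to 79.6%.

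The sequences that help to read the results are the stretches just before the transcription start of the inducible ligands. RefSeq promoters (GRCm38.p6) were matched by symbol for 41 of the 52 genes. An NF-kB-like motif, GGG and TTTCC with any 2 bases between them, was searched on both strands of the promoters. It was found for 6 of the 41, namely Cxcl1, Cxcl2, Cxcl3, Ccl20, Ccl9 and Ccr3, and in 1.41% of all 32851 promoters. An interferon-type motif, GAAA repeated after any 2 bases, was found for Cxcl10, Ccl19 and Cxcl14, and in 2.98% of all promoters. The stretches below are the coding strand, 5′ to 3′, up to the base before the start, and capitals mark the NF-kB-like matches, or the interferon-type match in Cxcl10. Cxcl1, Cxcl2 and Cxcl3 are shown because they lie in 1 run on chromosome 5 and share the letters GGGAATTTCC, yet Cxcl3 differed from the other 2 across the samples. A match is a description of these letters, not a site shown to be bound. Ccl20 is shown as the ligand with the smallest adjusted p against MEF.
Cxcl1, chr5:90891095-90891244, plus strand: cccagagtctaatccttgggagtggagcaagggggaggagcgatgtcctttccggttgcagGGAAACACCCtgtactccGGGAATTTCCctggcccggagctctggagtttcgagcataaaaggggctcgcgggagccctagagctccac
Cxcl2, chr5:90903749-90903898, plus strand: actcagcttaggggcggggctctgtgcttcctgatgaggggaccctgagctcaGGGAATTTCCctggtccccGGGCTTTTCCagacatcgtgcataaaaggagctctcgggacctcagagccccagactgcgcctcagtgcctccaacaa
Cxcl3, chr5:90785951-90786100, plus strand: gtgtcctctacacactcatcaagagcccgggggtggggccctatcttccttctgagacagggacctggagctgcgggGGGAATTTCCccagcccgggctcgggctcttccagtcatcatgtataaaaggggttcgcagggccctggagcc
Ccl20, chr1:83116616-83116765, plus strand: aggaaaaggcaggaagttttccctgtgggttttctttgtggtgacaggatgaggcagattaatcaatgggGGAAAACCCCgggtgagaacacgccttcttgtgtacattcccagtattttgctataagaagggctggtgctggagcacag
Cxcl10, chr5:92348890-92349139, minus strand: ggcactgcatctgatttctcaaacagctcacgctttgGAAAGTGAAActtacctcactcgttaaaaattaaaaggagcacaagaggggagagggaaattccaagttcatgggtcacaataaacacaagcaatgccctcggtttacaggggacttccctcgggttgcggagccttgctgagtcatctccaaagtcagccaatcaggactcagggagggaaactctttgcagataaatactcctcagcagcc

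**Figure D1:**
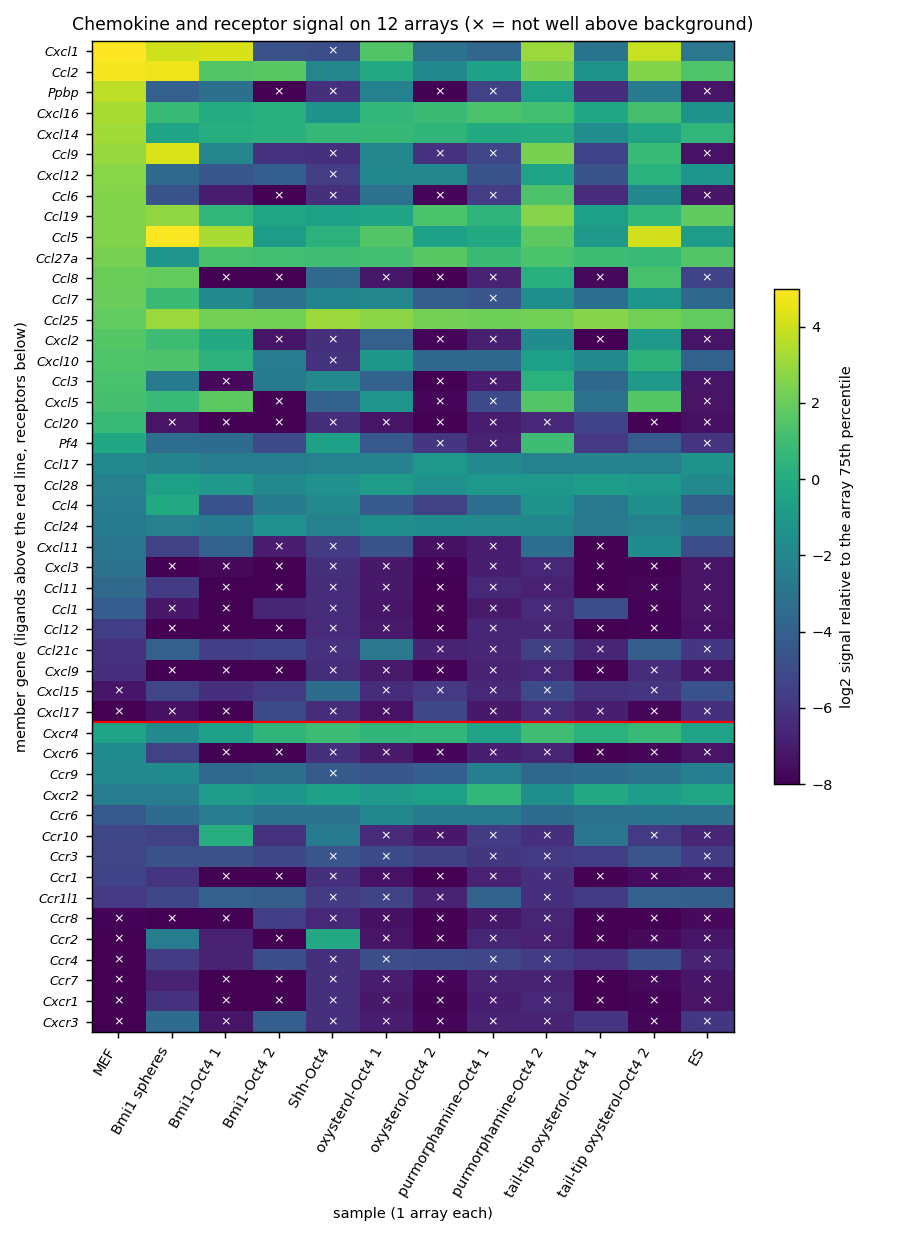
Heat map of 48 chemokine and receptor genes (rows; ligands above the red line, receptors below, each ordered by MEF) in 12 samples (columns), coloured by log2 signal relative to the array's 75th percentile; crosses mark signals not well above background. Colours compare samples within a row. Some ligands that are bright in MEF and the spheres (Ccl8, Ccl9, Cxcl2 and Cxcl5) are crossed out in ES cells. Others, such as Ccl2 and Cxcl1, are not, and the lines differ from each other in the rows of all 6 ligands.

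Of the neutrophil-attracting CXC ligands, which act on Cxcr2, Cxcl1, Cxcl2, Cxcl5 and Ppbp were bright in MEF and differed widely between the lines. Cxcl1, a main neutrophil attractant of fibroblasts, was at 5.05 in MEF, where its spot was saturated, at 4.04 in the spheres and at -2.84 in ES cells. In the Bmi1-Oct4 lines 1 and 2 it was at 4.23 and -4.77, and in the oxysterol-Oct4 lines at 1.48 and -3.11. In the purmorphamine-Oct4 lines it was at -3.71 and 3.03, in the tail-tip lines at -2.97 and 3.90, and in the Sonic hedgehog-Oct4 line it was dim at -4.87. The 4 lines from 1.48 to 4.23, each from a different pair, thus stood apart, and the other 5 lay below ES cells. The array design places the probe at chr5:90882059-90882118 of mm7, a build whose annotation was not used here.

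Cxcl2, a paralogue of Cxcl1, was at 1.57 in MEF, 0.97 in the spheres and dim in ES cells. It was above background in the same 4 lines, at -0.07 in Bmi1-Oct4 line 1, -4.00 in oxysterol-Oct4 line 1, at -1.67 for purmorphamine-Oct4 line 2 and -1.03 for the second tail-tip line, and dim in the other 5.

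Cxcl5, a further Cxcr2 ligand, was at 1.17 in MEF and 0.80 in the spheres, dim in ES cells, and ran over the lines from -8.94 (dim) through a median of -3.15 to 1.71. Its 3 highest lines, Bmi1-Oct4 line 1 (1.71), tail-tip line 2 (1.58) and purmorphamine-Oct4 line 2 (1.5), lay above MEF.

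Cxcl3 did not follow these neighbours, although its promoter holds the same letters. It was at -3.04 in MEF and dim on the other 11 arrays, so it was at least 14.9-fold lower in the spheres. There Cxcl1 was at least 2.01-fold lower, its MEF spot being saturated, and Cxcl2 1.52-fold lower. Ppbp, a platelet and monocyte ligand of Cxcr2, was at 3.68 in MEF, -4.02 in the spheres and dim in ES cells, and its brightest line was purmorphamine-Oct4 line 2 at -0.64. Pf4, platelet factor 4, was at -0.26 in MEF, -3.31 in the spheres and dim in ES cells. It exceeded MEF in purmorphamine-Oct4 line 2 (0.97), and the Sonic hedgehog-Oct4 line came next at -0.60. By the mm7 probe positions the order on chromosome 5 is Cxcl5, Ppbp, Pf4, Cxcl3, Cxcl15, Cxcl1, Cxcl2, so the genes near their MEF level in the spheres lie at both ends of the run and those much lower there (Ppbp, Pf4, Cxcl3) lie between them. Cxcl15, a lung-type ligand, was dim in MEF and at most -3.40 in any sample, in the Sonic hedgehog-Oct4 line.

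The interferon-inducible CXC ligands, which bind Cxcr3 on activated lymphocytes, were represented by Cxcl10 and, at low signal, Cxcl11. Cxcl10 was at 1.40 in MEF, 1.38 in the spheres and -3.97 in ES cells, and in the lines ran from -6.10 (dim) through a median of -1.89 to 0.40. Tail-tip line 2 (0.40), Bmi1-Oct4 line 1 (0.36), purmorphamine-Oct4 line 2 (-0.66) and oxysterol-Oct4 line 1 (-1.10) were again the 4 highest. Cxcl11 was at -2.88 in MEF, -5.42 in the spheres and -4.91 in ES cells, and above background in the same 4 lines only, from -4.69 to -1.75. Cxcl9 was above background in MEF alone, at -6.21.

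The homeostatic CXC ligands were set apart by Cxcl12, Cxcl14 and Cxcl16, which were bright in MEF and lower in the spheres. Cxcl12 was at 2.71 in MEF, -3.50 in the spheres and -1.18 in ES cells, and in the lines from -5.64 (dim) through a median of -4.09 to 0.31. Bmi1-Oct4 line 1, high for Cxcl1, was low for Cxcl12 at -4.50. The second Cxcl12 probe, for a different transcript, was above background only in MEF (-1.18) and tail-tip line 2 (-3.41). Cxcl14, an epithelial and fibroblast chemokine, was at 3.22 in MEF, -0.42 in the spheres and 0.58 in ES cells, and the 9 lines lay between -1.61 and 0.71 with a median of 0.09. Every line was below MEF and 8 of 9 were within 1 log2 unit of ES cells. Cxcl16, the membrane-bound ligand of Cxcr6, was at 3.32 in MEF, 0.75 in the spheres and -1.36 in ES cells, and from -1.28 to 1.32 in the lines.

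The monocyte-attracting CC ligands, most of which act on Ccr2, lie near each other on chromosome 11. Ccl2, the main monocyte attractant, was at 4.79 in MEF, 4.66 in the spheres and 1.43 in ES cells, and in the lines from -2.10 through -0.09 to 2.58. Its probe was printed 10 times on each array, and the SD of log2 mean signal over those spots, a measure of spread within an array only, was 0.094 to 0.26. Tail-tip line 2 (2.58) and purmorphamine-Oct4 line 2 (2.41) were highest, but both Bmi1-Oct4 lines were close to each other (1.54 and 1.67), unlike Cxcl1.

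Ccl7 was at 2.04 in MEF, 0.84 in the spheres and -3.63 in ES cells, and in the lines from -4.57 (dim) through -2.14 to -1.17. All 9 lines were below MEF and the spheres. The second Ccl7 probe was at 2.28 in MEF and 1.54 in the spheres and above background in 3 lines only, at -2.44 in Bmi1-Oct4 line 1, -0.78 in purmorphamine-Oct4 line 2 and -0.67 in tail-tip line 2. Ccl8 was at 2.06 in MEF and 1.91 in the spheres, dim in ES cells, and above background in 3 lines, tail-tip line 2 (1.23), purmorphamine-Oct4 line 2 (0.14) and the Sonic hedgehog-Oct4 line (-3.49). Ccl12 was above background in MEF alone, at -5.58.

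The macrophage inflammatory CC ligands, which draw monocytes and lymphocytes, split into those brighter in the spheres than in MEF and those brighter in MEF. Ccl5 was at 2.53 in MEF and 4.93 in the spheres, where it was saturated, and at -0.80 in ES cells. In the lines it ran from -1.01 through 0.35 to 4.12, and tail-tip line 2 (4.12) and Bmi1-Oct4 line 1 (3.36) were above MEF. Its second probe gave nearly the same values in bright samples but was dim or at most -2.74 in the others, so the probes disagreed on how low Ccl5 is in the dim samples. Ccl9 was at 2.98 in MEF and 4.27 in the spheres, dim in ES cells, and from -6.25 (dim) through -5.24 to 2.40 in the lines.

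Ccl6 was at 2.60 in MEF but -4.62 in the spheres, dim in ES cells, and highest at 1.39 in purmorphamine-Oct4 line 2. Ccl3 was at 1.25 in MEF, -2.67 in the spheres and dim in ES cells, and ran over the lines from -7.95 (dim) through -3.66 to 0.30. Bmi1-Oct4 line 1 was dim for Ccl3 (-7.70) and close to background for Ccl6 (-6.99), in contrast to its Cxcl1 and Ccl5. Ccl4 was at -2.51 in MEF, -0.12 in the spheres and -4.07 in ES cells, and from -5.46 through -2.78 to -1.31 in the lines.

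The remaining CC ligands differed from each other in where they were bright. Ccl20, which draws Ccr6-bearing lymphocytes and dendritic cells, was at 0.78 in MEF and dim on all other arrays but tail-tip line 1 (-5.41). Ccl11, the eosinophil attractant eotaxin, was at -3.50 in MEF, -5.72 in the spheres and dim in ES cells and in all 9 lines. Ccl27a, a skin-type ligand of Ccr10, was at 2.34 in MEF, -1.22 in the spheres, 1.5 in ES cells and 0.82 to 1.65 in the lines, all within 1 log2 unit of ES cells. Ccl25, a thymic and gut ligand of Ccr9, was at 1.90 in MEF, 1.87 in ES cells, 3.02 in the spheres and 2.15 to 3.06 in the lines with the probe used. Its 2 other probes were dim or at most -2.62 on every array, so the probes disagreed on whether it is bright. Ccl17, Ccl19, Ccl24 and Ccl28 were above background on all 12 arrays with the probes used, and their lines spanned 1.42, 3.32, 1.37 and 1.13 log2 units. The second Ccl24 probe was above background on 3 arrays and the second Ccl19 probe on 9. In MEF the latter was at -6.57, against 2.55 with the probe used.

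Of the 17 receptors, which mark the cells that can respond, 9 were above background in MEF, 6 in ES cells, 15 in the spheres and 4 to 11 in the lines. Cxcr4, the receptor of Cxcl12, was at -0.45 in MEF, -0.53 in ES cells, -1.80 in the spheres and -0.56 to 0.99 in the lines. Its second probe went the other way for the spheres, at -0.68 there, -3.67 in MEF, -3.34 in ES cells and at most -4.37 in the lines, so the order of spheres and lines depends on the probe. Cxcr2, the receptor of Cxcl1, Cxcl2 and Cxcl5, was at -2.49 in MEF, -2.55 in the spheres and -0.36 in ES cells. In the lines it was at -1.54 to 0.61, all above MEF and the spheres. The second Cxcr2 probe was between -5.02 and -3.06 on all arrays and showed no such order. Of the ligands, Cxcl1 and Cxcl2 were below MEF in all 9 lines, but Cxcl5 was above MEF in 3.

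Cxcr6, the Cxcl16 receptor, was at -1.68 in MEF and -5.50 in the spheres, and dim in ES cells and all lines. Ccr2, the Ccl2 receptor, was at -2.51 in the spheres and at -0.17 in the Sonic hedgehog-Oct4 line, but dim in MEF, ES cells and 7 of 9 lines. Its second probe was dim in that line (-6.28) and at -6.19 in the spheres. Ccr10 was at 0.11 in Bmi1-Oct4 line 1, -2.64 in the Sonic hedgehog-Oct4 line, -2.90 for tail-tip line 1, -5.25 in MEF, and dim or at most -5.43 elsewhere. Cxcr3 was at -3.45 in the spheres and -4.13 in Bmi1-Oct4 line 2, at -6.04 in tail-tip line 1 and dim in MEF, ES cells and the other lines. Ccr6, the Ccl20 receptor, was above background on all arrays, at -4.43 in MEF, -3.12 in ES cells, -3.44 in the spheres and -3.42 to -1.92 in the lines.

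The first comparison asks how far the iPS lines differ from MEF, the fibroblast type most of them came from. No array holds tail-tip fibroblasts, so MEF are not the source of the tail-tip lines. Against MEF, 6 of 49 chemokine and receptor genes were lower in the lines and 1 was higher in limma at an adjusted p under 0.05. Over all 25403 genes fitted, 2.74% were lower and 8.18% higher. The lower ones were the ligands Ccl20, Ccl7, Cxcl3, Ccl11 and Cxcl14 and the receptor Cxcr6, and the higher one was the receptor Ccr4. Cxcl3 passed the background filter through MEF alone, and Ccl11 and Cxcr6 through MEF and the spheres. For these genes the filter itself favours a lower call, and the spread over the lines is that of dim values. The median difference was -1.84 over these 49 genes, -3.2 over the 33 ligands and 0.8 over the 16 receptors, beside 0.44 over all genes.

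Ccl20 fell by 8.04 on the log2 scale (SE 1.02, limma adjusted p = 0.000778) and was dim in 8 of 9 lines, so that the size of this difference rests largely on dim values, which can be surrogates. Cxcr6 was at least 15.9-fold lower (limma adjusted p = 0.00308), Cxcl3 at least 6.2-fold (0.0114) and Ccl11 at least 4.51-fold (0.0366). Cxcl14 fell by 3.20 (SE 0.731, limma adjusted p = 0.0198) and Ccl7 by 4.67 (SE 1.16, limma adjusted p = 0.0282). Ccr4, dim in MEF and above background in 5 of 9 lines, was at least 2.48-fold higher (limma adjusted p = 0.0338). Its call was lost in 13 of 23 alternative settings (adjusted p 0.0177 to 0.375), and its second probe was above background only in ES cells (-1.52) and Bmi1-Oct4 line 2 (-5.42). The call of Ccl11 was lost without oxysterol-Oct4 line 2 or without tail-tip line 2, and that of Ccr4 without oxysterol-Oct4 line 2, purmorphamine-Oct4 line 1 or purmorphamine-Oct4 line 2.

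Several other large mean differences did not pass. The difference of Ppbp was -8.51 log2 units (SE 2.58, limma adjusted p = 0.0612), that of Ccl6 -7.57 (SE 2.93, adjusted p = 0.126) and that of Cxcl12 -5.78 (SE 1.98, adjusted p = 0.0902). For Cxcl16 it was -2.90 (SE 0.834, limma adjusted p = 0.0512) and for Ccl2 -4.55 (SE 1.75, adjusted p = 0.123). With normexp background correction or with quantile normalization, 10 members were lower and 0 higher, while over all genes the higher and lower calls went from 2079 and 697 to 1836 and 1094, and to 1641 and 978. Leaving out purmorphamine-Oct4 line 2 and tail-tip line 2, an alternative added after seeing the data, gave 10 lower and 0 higher, with Ccl6, Ccl8, Ccl9, Cxcl12 and Ppbp among them and without Ccl11 and Ccr4. Within the slide that holds MEF, ES cells and the Bmi1-Oct4 lines, 4 arrays with 1 residual degree of freedom, no gene of any kind passed in limma.

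**Figure D2:**
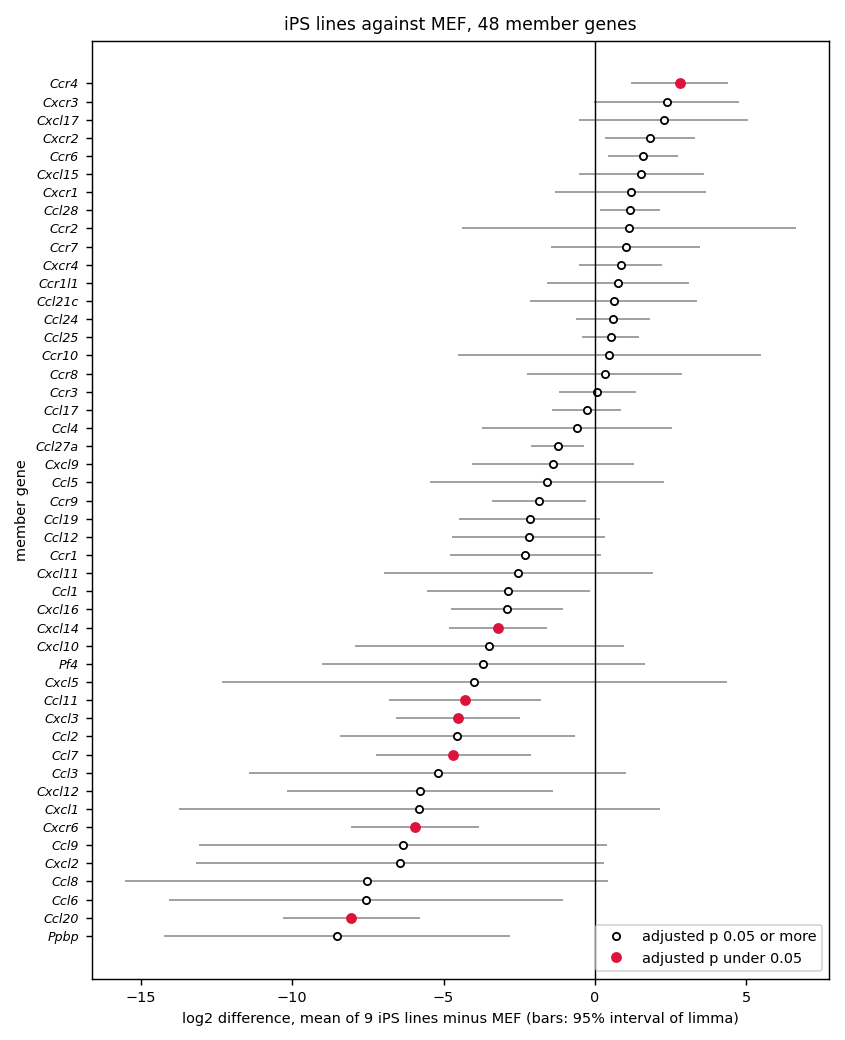
Difference in log2 signal between the mean of 9 iPS lines and MEF for 48 chemokine and receptor genes (points) with limma's 95% interval (bars); red points have an adjusted p under 0.05. Ppbp has the lowest estimate and a wide interval, -14.23 to -2.79, that lies below 0 while its adjusted p is above 0.05; the intervals of Ccl20, Cxcr6 and Cxcl14 are narrower and also lie below 0.

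How close the lines came to ES cells is the second comparison. Against ES cells, 0 of 49 genes passed in either direction in limma and 0 had an unadjusted p under 0.05, beside 0.00788% of all genes higher and 0.0197% lower, which were 2 and 5 genes. The gene nearest to the threshold was Cxcl16, 1.78 log2 units higher in the lines with a 95% interval from -0.07 to 3.63 (limma adjusted p = 1). The interval around a difference spanned 5.7-fold either way at the median over these genes, so a difference of several fold from ES cells was not detectable.

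Against the spheres, 1 of 49 genes was higher and 0 were lower in limma, beside 5.86% and 2.77% of all genes. At an unadjusted p under 0.05 in limma, 3 were higher and 8 lower, beside 3050 and 2637 of all 25390 genes. Ccl27a rose by 2.34 log2 units over the spheres (SE 0.394, limma adjusted p = 0.00433), with all 9 lines above them. It passed under all 22 alternatives that were run with this gene (adjusted p 0.000804 to 0.0348). Cxcr4 was 2.19 higher with the probe used (SE 0.611, limma adjusted p = 0.0528), and its second probe was lower in every line than in the spheres. It passed without Bmi1-Oct4 line 1 or without purmorphamine-Oct4 line 1, which took the count from 1 to 2. Without Bmi1-Oct4 line 2 Cxcr3 passed as lower, and without the Sonic hedgehog-Oct4 line Ccr2 did. The difference of Ccl9 was -7.62 (SE 3.04, limma adjusted p = 0.167) and that of Ccl7 -3.48 (SE 1.16, adjusted p = 0.0991).

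The lines were also compared by their inducing agent and their fibroblast source. Between the Bmi1-Oct4 lines and the lines made with hedgehog activators, 0 of 49 genes passed in limma, beside 0% of all genes in either direction, and 9 had an unadjusted p under 0.05, all lower in the Bmi1-Oct4 lines. Of these 9, all but Ccr2 were dim in every line of both groups. The arrays of the Bmi1-Oct4 lines had the lowest floors of the lines, -7.27 and -6.88. Over all 25355 genes, 2014 were lower and 491 higher at an unadjusted p under 0.05 in limma. Both Bmi1-Oct4 arrays lay on 1 slide and the others on different ones, so slide and agent cannot be told apart. Between tail-tip and embryonic oxysterol-Oct4 lines 0 of 49 passed in limma, again beside 0% of all genes, with 1 unadjusted p under 0.05 in each direction. Those were Ccl4, at a difference of 2.78 (limma adjusted p = 0.754), and Cxcl14, at -1.61 (limma adjusted p = 0.723).

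The spheres and ES cells were each set beside MEF as 1 array against 1, with no test. In the spheres, 19 of 49 genes were at least 2-fold lower than in MEF and 12 at least 2-fold higher, beside 17.6% and 33% of all genes. Besides Cxcl3, the largest losses were Ccl20 (at least 211-fold), Ppbp (207-fold), Ccl6 (149-fold), Cxcl12 (74-fold), Ccl3 (15.1-fold) and Cxcr6 (14.2-fold). The second Ccr2 probe was at -6.19 in the spheres and dim in MEF. The largest gains were Ccr2 (at least 20.3-fold), Cxcr3 (at least 10.5-fold), Ccl5 (at least 5.27-fold, saturated in the spheres) and Ccl4 (5.25-fold). The 17 lower ligands against 2 lower receptors stood beside 7 higher ligands and 5 higher receptors.

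In ES cells, 27 of 49 genes were at least 2-fold lower than in MEF and 4 higher, beside 20.7% and 26.6% of all genes. Ppbp was at least 527-fold lower, Ccl9 at least 325-fold, Ccl6 at least 249-fold, Cxcl1 at least 237-fold (saturated in MEF), Ccl8 at least 172-fold and Cxcl2 at least 123-fold. The 4 higher were Cxcl15 (at least 4.45-fold), Cxcr2 (4.36-fold), Ccr1l1 (3.41-fold) and Ccr6 (2.48-fold). The second Cxcr2 probe was at -4.69 in both samples, and the second Cxcl15 probe was dim in both, so these 2 gains depend on the probe. The spheres, lines and ES cells share the single MEF array, so these values are given side by side and not as independent evidence.

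The lines differed widely from each other in these genes. Among the 34 genes above background in at least 3 lines, the largest SDs over the 9 lines were those of Cxcl5 (4.03 log2 units), Ccl8 (3.86), Cxcl1 (3.84), Ccl9 (3.25), Cxcl2 (3.25) and Ccl6 (3.14). The median SD was 1.25 over these 34 and 0.68 over the 21591 genes that met the same filter, and 13 of 34 exceeded 2, beside 5.06% of those genes. Ccl8 was above background in 3 of the 9 lines, Cxcl2 in 4, Ccl6 in 5 and Cxcl5 in 6, so their SDs rest partly on dim values. In the lines 36.5 to 65.4% of the family was above background, beside 62 to 79.6% of all genes, so the 2 medians are not like for like. The constant end held Ccl27a (0.26), Ccl25 (0.31) and Ccl28 (0.35).

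This spread lay within the groups. In the Bmi1-Oct4 pair, 13 of 49 genes were at least 2-fold higher in line 1 (13.1% of all genes were) and 9 in line 2 (15.6%). In the oxysterol-Oct4 pair, 15 were higher in line 1 (15% of all genes) and 3 in line 2 (19.2%). In the purmorphamine-Oct4 pair, 3 were higher in line 1 (12.8%) and 18 in line 2 (12.4%). In the tail-tip pair, 4 were higher in line 1 (14%) and 23 in line 2 (14.9%). The same 11 ligands, Ccl5, Ccl6, Ccl7, Ccl9, Cxcl1, Cxcl2, Cxcl5, Cxcl10, Cxcl11, Pf4 and Ppbp, were among the higher ones in Bmi1-Oct4 line 1, oxysterol-Oct4 line 1, purmorphamine-Oct4 line 2 and tail-tip line 2. Of all genes 0.87%, or 219, had that combination. Ccl3 and Ccl4 had it in 3 pairs and were higher in the other line of the Bmi1-Oct4 pair. The combination was chosen after the values were seen, and each pair is 1 array against 1, so it has no test. Of the 11 ligands, only Ccl5, Cxcl1 and Cxcl10 were above background in both lines of every pair. The others were dim in the lower line of at least 1 pair, so their folds there rest on dim values. Ccl6 in Bmi1-Oct4 line 1, at -6.99 against a dim -8.07, lay below the line 2 floor of -6.88, so its excess there is not shown. The 4 lines lie on all 3 slides, and each of the 3 slides also holds a line without the pattern.

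**Figure D3:**
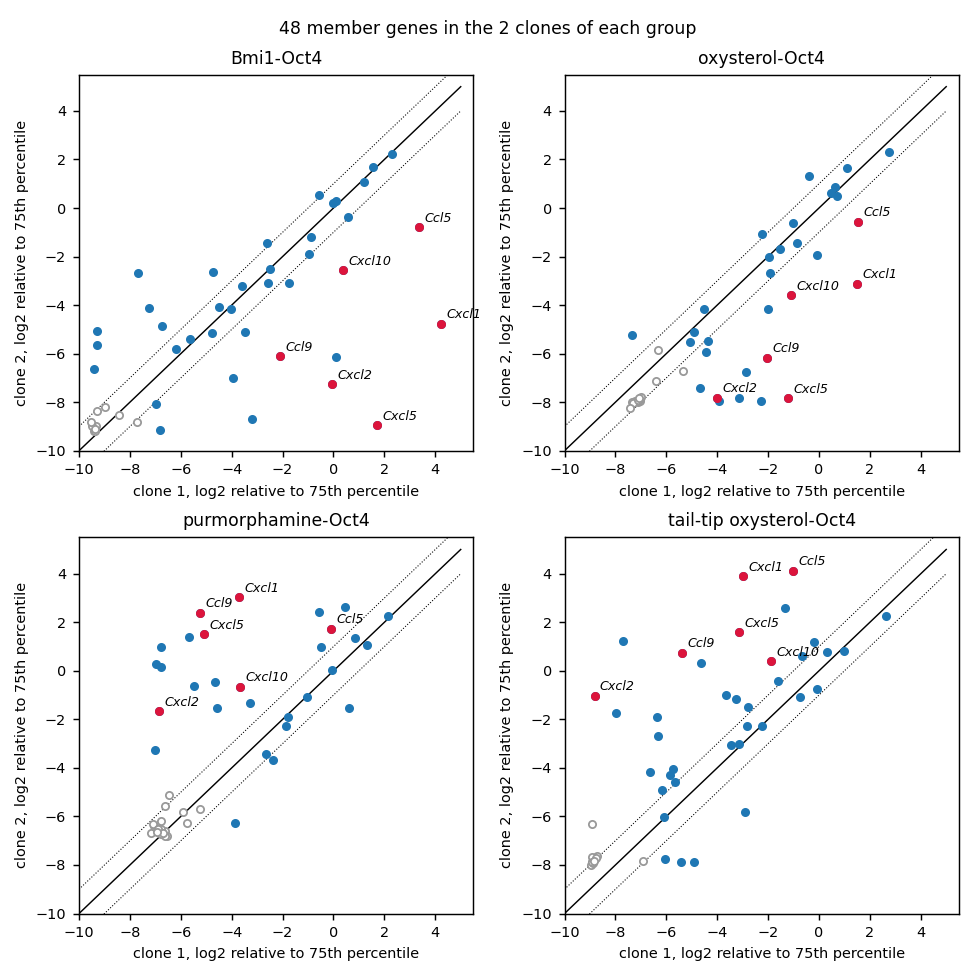
Log2 signal of 48 chemokine and receptor genes in line 1 (clone 1, x axis) against line 2 (clone 2, y axis) of each group with 2 lines; solid line, equality; dotted lines, 2-fold; open points are dim in both lines. The named ligands (red) lie to the right of the 2-fold band in the Bmi1-Oct4 and oxysterol-Oct4 panels and above it in the purmorphamine-Oct4 and tail-tip panels.

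The summed signal of 12 fibroblast markers, in multiples of the array's 75th percentile, was 135 in MEF, 54.3 in the spheres and 9.68 in ES cells. It was 43.8 in tail-tip line 2, 31.6 in purmorphamine-Oct4 line 2 and 16.2 in oxysterol-Oct4 line 1, and 6.8 to 8.87 in the other 6 lines. Bmi1-Oct4 line 1, at 7.77, was among those 6. In the 3 lines with the higher sums the largest single contribution was that of Col1a2. The markers differed among themselves, and those named here were chosen after their values were seen. The matrix proteoglycan Dcn was at 4.59 in MEF, 1.96 in tail-tip line 2, 1.97 in purmorphamine-Oct4 line 2 and -0.50 in oxysterol-Oct4 line 1, but at -5.29 in Bmi1-Oct4 line 1 and dim in the other 5. Col1a2, a chain of type I collagen, was at 5.16, 4.84, 4.19 and 2.88 in the same order and at -0.37 in Bmi1-Oct4 line 1. Postn and Fap, further fibroblast markers, were at 0.64 and -0.39 in MEF and dim in all 9 lines. Thy1 was at -0.05 in tail-tip line 2 and 0.55 in tail-tip line 1, and Pdgfra was lowest of all lines in oxysterol-Oct4 line 1 (-4.39). Bmi1-Oct4 line 1 had Cxcl1, Cxcl5 and Ccl5 near or above MEF. Its Dcn, at -5.29, was above background, and that of the 5 lines without the pattern was dim. The floors of the arrays differ, though, and that of Bmi1-Oct4 line 1 was the lowest of the lines, at -7.27. In the Sonic hedgehog-Oct4 line, with a floor of -4.2, Dcn was dim at -4.57, a higher signal. The flag thus does not set Bmi1-Oct4 line 1 apart. The Col1a2 of Bmi1-Oct4 line 1 (-0.37) was close to the lowest of the 5 lines without the pattern, which ran from -0.35 to 0.96. The metalloproteinases Mmp3 and Mmp13, at 4.98 and 3.65 in MEF, were at -0.76 and -2.33 in Bmi1-Oct4 line 1 and at -3.83 and -6.61 in line 2. The part of fibroblast RNA in the pattern was not tested in any of the 4 lines.

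Blood and immune markers were checked in the same way, since the ligands are also made by macrophages. Their summed signal was 10.7 in MEF, 25.4 in the spheres, 11.8 in ES cells and 11.4 to 20 in the lines. Of the 18 measured, 7 to 18 were above background in the lines. Laptm5 was at 2.57 in ES cells and 2.25 to 2.97 in the lines but at -4.68 in MEF, and the globin gene Hba-a1 was at 3.32 in the spheres. The sum thus does not measure macrophage RNA alone. The immune markers differed among themselves, and those named here were chosen after their values were seen. Tyrobp, an adaptor of myeloid receptors, was at 0.93 in MEF, -1.22 in oxysterol-Oct4 line 1, -1.59 in purmorphamine-Oct4 line 2, -1.65 in tail-tip line 2, -3.09 in tail-tip line 1 and -5.75 or lower elsewhere. Adgre1, the macrophage antigen F4/80, was at 0.59 in MEF, -0.44 in purmorphamine-Oct4 line 2, -2.49 in tail-tip line 2, -2.89 in Bmi1-Oct4 line 2 and -3.74 or lower elsewhere. Itgam, the myeloid integrin CD11b, was instead highest in Bmi1-Oct4 line 2 (1.06) and oxysterol-Oct4 line 2 (-1.22), and dim in purmorphamine-Oct4 line 2 and tail-tip line 2. Cd68, a macrophage lysosomal protein, was at 1.08 in oxysterol-Oct4 line 1 and 2.30 in line 2, and at 1.71 in purmorphamine-Oct4 line 2 and 3.11 in line 1. The pan-leukocyte gene Ptprc was between -7.26 and -4.96 on all 12 arrays and above background on 3 of them, both Bmi1-Oct4 lines and the spheres. The summed signal of the ES cell markers was 170 to 180 in the 4 lines and 193 to 239 in the other 5. The marker medians of the 4, 3.28 to 3.74, overlapped with those of the other 5. The sum of 193, that of purmorphamine-Oct4 line 1, lacks Tdgf1, which had no value there. The 4 lines were grouped after the values were seen, and the share of all genes that divide them this way was not counted. The part of myeloid RNA, or of a lower ES cell marker signal, in the pattern was not tested.

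**Figure D4:**
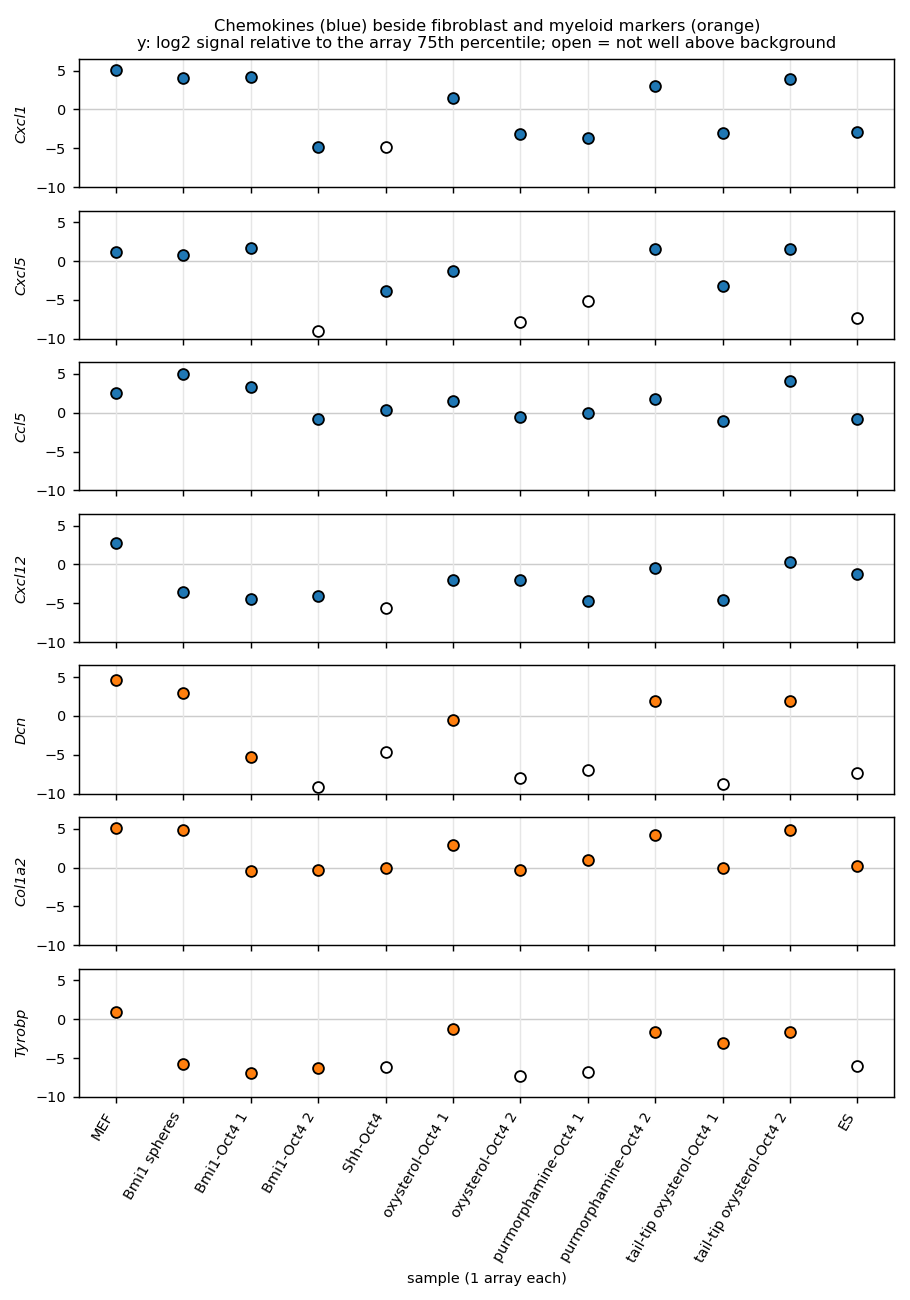
Log2 signal relative to the array's 75th percentile in 12 samples (x axis) for Cxcl1, Cxcl5, Ccl5 and Cxcl12 (blue) and for the fibroblast markers Dcn and Col1a2 and the myeloid marker Tyrobp (orange); open points are not well above background. In Bmi1-Oct4 line 1 the first 3 ligands are at 4.23, 1.71 and 3.36. Dcn is above background there at -5.29, on the array with the lowest floor of the lines (-7.27). In purmorphamine-Oct4 line 2 and tail-tip line 2 the first 3 ligands, Dcn and Col1a2 lie above the array's 75th percentile. Tyrobp lies below it there, at -1.59 and -1.65. Other markers of the same lists, among them Postn, Fap and Itgam, are dim in both of these lines and are not drawn.

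The genes that induce and transduce chemokine responses were read from lists. Of 27 inducers and NF-kB genes, 0 passed against MEF in limma, with 9 lower and 0 higher at an unadjusted p under 0.05, and 2 were lower than in the spheres, Il1r1 (-5.62, SE 1.44, adjusted p = 0.0376) and Tlr4 (-7.16, SE 1.93, adjusted p = 0.0461), which encode receptors for interleukin 1 and lipopolysaccharide. Over all genes 2.74% were lower than in MEF and 2.77% lower than in the spheres. At an unadjusted p under 0.05 in limma, 2327 of all 25403 genes were lower than in MEF and 4692 higher. The list's median was -1.93 against MEF and -1.76 against the spheres, beside 0.44 and 0 for all genes. Ptgs2, an NF-kB target that encodes cyclooxygenase 2, was at 2.98 in MEF, 2.34 in Bmi1-Oct4 line 1, 2.02 in purmorphamine-Oct4 line 2, 2.77 for tail-tip line 2, -0.08 for oxysterol-Oct4 line 1, and -0.52 or lower in the other 5 lines. Il6 was at 0.71 in MEF but dim in Bmi1-Oct4 line 1 (-8.84), and above background among the lines only at -1.74 in the second purmorphamine-Oct4 line and -0.31 in the second tail-tip one. Ptgs2 and Il6 were named after their values were seen.

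Of 20 interferon response genes, 2 were lower than in MEF, the interferon gamma receptor chains Ifngr1 (-1.84, SE 0.444, limma adjusted p = 0.0254) and Ifngr2 (-3.79, SE 0.936, limma adjusted p = 0.028), and both were lower than in the spheres too (adjusted p = 0.0439 and 0.0441), beside 2.74% and 2.77% of all genes. The list's median level was 1.94 in MEF and highest among the lines in tail-tip line 2 (0.87), Bmi1-Oct4 line 1 (0.65) and purmorphamine-Oct4 line 2 (0.62), beside -1.09 to -0.24 in the other 6. Oxysterol-Oct4 line 1, at -0.83, was among those 6.

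Of 26 receptor signalling genes, 2 were higher in the lines than in MEF, Elmo1, a guanine nucleotide exchange adaptor of cell migration (3.53, SE 0.495, limma adjusted p = 0.00149), and Arrb1, a beta-arrestin that desensitises receptors (1.70, SE 0.396, limma adjusted p = 0.0216). Against the spheres Elmo1 (2.60, limma adjusted p = 0.00871) and the receptor kinase Grk3 (4.97, limma adjusted p = 0.000379) were higher. Over all genes 8.18% were higher than in MEF and 5.86% higher than in the spheres. The list's median was -0.2 against MEF and 0.34 against the spheres, beside 0.44 and 0 for all genes.

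Of 19 genes for chemokine-processing proteases, proteoglycans and enzymes that build heparan sulfate chains, 6 were lower than in MEF and 1 higher. Among all genes 2.74% were lower and 8.18% higher. The higher one was Dpp4, a peptidase that trims and inactivates Cxcl12 and other chemokines (4.36, SE 0.712, limma adjusted p = 0.00356), which was also at least 336-fold higher than in the spheres. Among the lower ones were Mmp8 (-3.35, adjusted p = 0.0108) and Mmp14 (-3.08, adjusted p = 0.0179), both matrix metalloproteinases, and Vcan (-3.31, adjusted p = 0.0465), a large matrix proteoglycan, all by limma. Mmp8 was above background in 4 of the 9 lines, so its difference rests partly on dim values. The list's median was -2.

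Of 14 measured genes of the atypical receptors and other chemokine families, a list that also holds Pf4 and Ppbp, 0 passed in any of the 5 comparisons tested with limma, and against MEF 1 was higher and 1 lower at an unadjusted p under 0.05. Its median was 0.22 against MEF and 0.74 against ES cells.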

How the data were processed

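The 12 samples were each hybridised to 1 one-colour Agilent array. The deposited intensity values are processed signals, which Feature Extraction 9.5.3.1 made with spatial and multiplicative detrending and with surrogate values for dim spots, and with its global background correction switched off, per the file headers. The deposited flags for background, saturation and outliers (other values, per the file headers) come from the same program. Values of dim spots can thus be surrogates, and where a gene was dim in a whole group its fold is given as a bound.

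Of 43379 gene spots per array, outlier-flagged ones were dropped, and log2 signals were averaged per probe, minus the array's 75th percentile. Probes well above background on at least 1 array were kept, and the brightest probe stood for a gene (25415 genes). Names came from RefSeq by accession (22951 probes) or by symbol or synonym (9768), otherwise as deposited (8455). Python 3.11.15, R 4.3.3 and limma 3.58.1 were used.

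The lines as 1 class were set against MEF, ES cells and spheres with limma on 4 classes (8 residual degrees of freedom), and groups of lines on 8 groups (4 of them), the 3 hedgehog-activator groups weighted equally. Benjamini-Hochberg adjustment ran over all genes at 0.05, and single arrays borrow the spread seen among the lines. Depth is given as genes above background; the number of arrays limits the precision. The fit was tested on simulated data. Full values are given for genes that passed, that were at least 4-fold apart in 1 array against 1, or that had the 6 largest SDs over lines, and for their ligands or receptors; in the other lists up to 4 genes that passed are named. Members and lists were chosen with earlier results of these data known. Alternatives covered normalization, filters, probes, models, slides and each line left out. The values of 1 gene are not reported here, and the figures draw the other 48.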

Additional observations from a re-analysis of the deposited data

Results flagged for a closer look

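In 41 genes of the family with at least 1 of the 9 lines above background, the highest or lowest line was checked for its distance from the rest (Dixon's ratio of gap to range). Chance flags about 1 in 20 groups, and 5 of the 41 were found. Ccr2 was high in the Sonic hedgehog-Oct4 line, at -0.17 log2 units against a dim -6.63 in the next line, but only with 1 of its 2 probes. Cxcl15 was high in that line too, at -3.40 against a dim -5.10, so that for both genes the distance rests on dim values. The second Cxcl15 probe was dim in that line, at -6.22. Cxcr3 was high in Bmi1-Oct4 line 2, at -4.13 against -6.04. Ccl17 was high in oxysterol-Oct4 line 2, at -1.09 against -1.85. Cxcl14 was low in tail-tip line 1, at -1.61 against -0.41.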

How the results depend on the processing

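Of 515 values of single genes under alternative settings, 436 kept direction and call, 78 kept direction only and 1 turned. The latter was Ccr1 in ES cells against MEF, at 0.01 with signals raised to the array floor. The count of 7 against MEF was 5 to 8 when a line was left out, and 0 within the slide of MEF. The count of 1 against the spheres was 1 to 2 when a line was left out. It was 3 with normexp, with every probe tested by itself, and without purmorphamine-Oct4 line 2 and tail-tip line 2, and 2 with quantile normalization, with genes above background on at least 6 arrays and with an intensity trend. Of these added calls Cxcr4 came 3 times as higher with the probe used, and its second probe passed as lower when probes were tested by themselves. Ccl7, Cxcr6, Ccl8, Ccl9 and a probe of Ccl25 came 1 time each, all lower. Leaving out Bmi1-Oct4 line 1 or purmorphamine-Oct4 line 1 added Cxcr4, Bmi1-Oct4 line 2 added Cxcr3, and the Sonic hedgehog-Oct4 line added Ccr2. Between the Bmi1-Oct4 and hedgehog-activator lines the count of 0 became 9 with no filter on dim probes and 13 with signals raised to the array floor, all lower; over all genes those settings called 2359 and 2987 lower and 52 and 48 higher. The cause was not tested. It stayed 0 with each line left out, as did that of the tail-tip comparison and that against ES cells. In the spheres and in ES cells against MEF the 31 genes past 2-fold became 3 each in limma with the spread of the lines. A fixed slide block could not be fitted for the Bmi1-Oct4 comparison. Quantile normalization moved the median of all genes against MEF from 0.44 to 0.12.

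Clone numbers did not pair the lines: correlations of same-numbered lines over 6 pairs of groups ran from -0.16 to 0.24, and 1 exceeded 0.1. With the clone number as a replicate block, both comparisons among the lines kept a count of 0. The 95% interval spanned 3.39-fold either way at the median over the family for the Bmi1-Oct4 comparison and 4.2-fold for the tail-tip one.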
